A study of Mus musculus with 4 samples.

Results

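Transcripts of the keratin and claudin gene families were followed in 4 RNA-seq libraries of mouse ovary. Members were the rows of the deposited gene table named Krt or Cldn with a number whose 4 read counts summed to 10 or more. Of 75 rows with such names among 21958 genes, 36 met that rule, 23 keratins and 13 claudins. Nearest to the limit inside it were Krt36 with 10 counts and Cldn6 with 12, and nearest outside were Krt9 with 9 and Krt24 with 8. Of the 39 rows left out, 18 had no count in any library, among them Krt6a, Krt16, Cldn14 and Cldn16.

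The ++Oxtr libraries, replicates 3 and 4, came from mice of the genotype labelled tg, which overexpress the oxytocin receptor according to the series title. The WT libraries, replicates 5 and 6, came from wild-type mice. The series design text places all females in diestrus, the quiet phase between heats. The promoter of the transgene, the number of lines, the strain, the age and any pooling of animals were not stated in the labels. The labels name ovary as the tissue of every library, while their extraction protocol names white adipose tissue.

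Keratins are the intermediate filament proteins of epithelial cells, built from pairs of an acidic type I and a basic type II chain. Claudins are membrane proteins that form the strands of tight junctions, some sealing the space between cells and others leaving pores for ions. In the ovary, keratins such as Krt8, Krt18 and Krt19 are known from the surface epithelium, and the adjoining oviduct is lined by an epithelium rich in keratins and claudins. Endothelial cells carry a claudin of their own, Cldn5.

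Each library held 15229810 to 16517764 read counts. Oxtr, the gene of the oxytocin receptor, was at 109 and 161 CPM (read counts relative to library size, scaled between libraries by the TMM method) in the ++Oxtr libraries, and at 29.2 and 55.4 CPM in the WT libraries. Its log2 difference was 1.68 ± 0.39 (SE), with an adjusted p of 1 by edgeR's quasi-likelihood test and 0.00692 by DESeq2. Markers of granulosa cells and oocytes were present in every library, with Foxl2 at 157 to 207 CPM and Gdf9 at 73.8 to 168 CPM, as the ovary label has it. Adipocyte markers summed to 2006 and 1405 CPM in ++Oxtr against 190 and 178 CPM in WT. ++Oxtr replicate 3 stood apart in 8 markers of oviduct ciliated cells, which summed to 65.8 CPM there and to 551 to 579 CPM in the other 3 libraries. The 8 oviduct secretory cell markers summed to 117 CPM in that library and to 719 to 2957 CPM elsewhere, mostly from Ovgp1. Of these 8, 5 were lowest in ++Oxtr replicate 3 and 3 in WT replicate 6. WT replicate 6 stood apart in 8 luteal and theca cell genes, at 9233 CPM against 2328 to 2580 CPM. Values below are therefore given library by library.

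No keratin or claudin passed the test of ++Oxtr against WT. edgeR's quasi-likelihood test called 0 of the 30 members that passed its filter on low counts, beside 0% of the 15311 genes tested in either direction. DESeq2 called 0 members as well, beside 0.366% of its genes called higher in ++Oxtr and 0.0164% called lower. At an unadjusted p under 0.05 edgeR gave 1 member higher, Cldn15, and 0 lower, where 2.12% and 0.451% of all genes did so. The median log2 difference of ++Oxtr minus WT was 0.12 over 18 keratins and -0.17 over 12 claudins, against -0.0033 over all genes tested. With ++Oxtr replicate 3 left out these medians were 0.36 and 0.31, and with ++Oxtr replicate 4 left out they were -0.73 and -0.85. Without WT replicate 5 they were 0.34 and 0.11, and without WT replicate 6 they were -0.14 and -0.24. The direction of both families thus turned on which library of either genotype was left out.

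Of the 30 members tested, 2 lay higher in both ++Oxtr libraries than in both WT libraries, Cldn15 and Krt10, and 2 lay lower, Cldn4 and Krt1. Over all genes tested, 14.5% lay above and 11.7% below in this way. In the deposited FPKM values (counts relative to gene length and library size) the separation of Krt10 was lost. The other 26 members tested overlapped between genotypes. Krt75, which the filter removed, also lay lower in both, with 2 and 5 counts in ++Oxtr against 8 and 7 in WT.

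**Figure D1:**
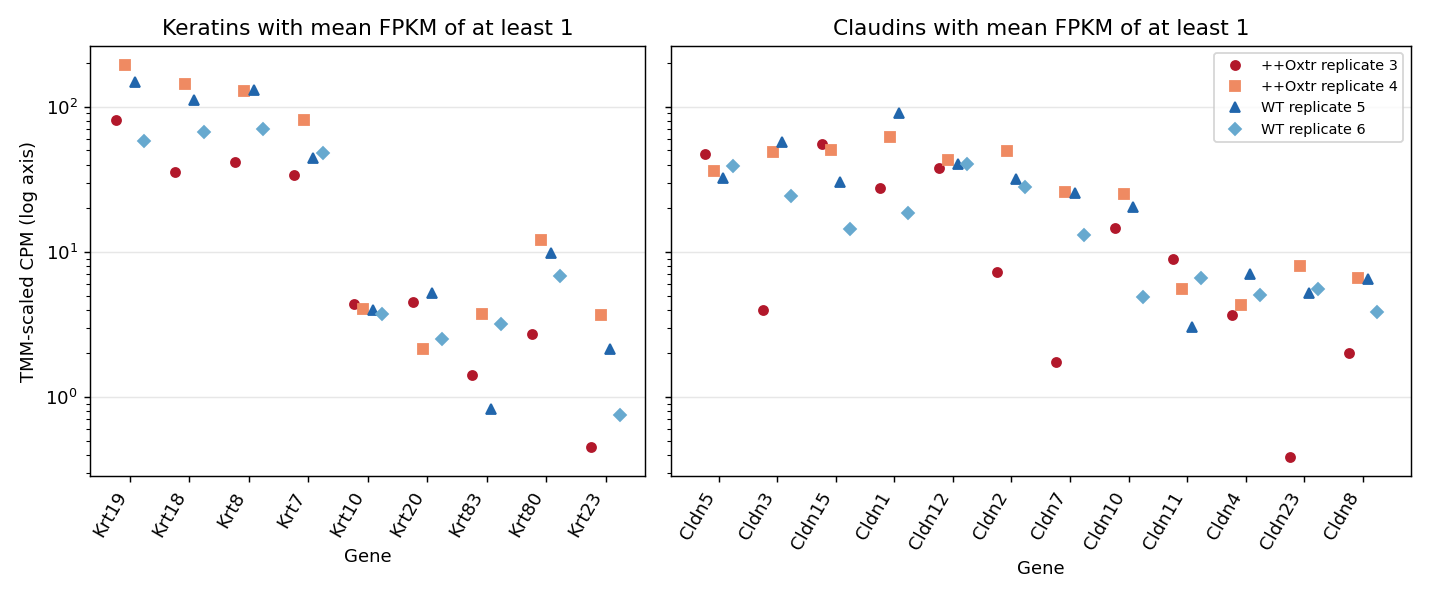
TMM-scaled CPM on a log axis of the 9 keratins and 12 claudins with a mean FPKM of at least 1, ordered by mean FPKM, with a symbol for each library. ++Oxtr replicate 3 was the lowest library for 12 of these 21 genes, and ++Oxtr replicate 4 the highest for 12.

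The simple epithelial keratins made up nearly all keratin transcript. Krt19, a type I chain of ductal and surface epithelia, had the highest mean FPKM of all members, with 44.1 and 102 FPKM in ++Oxtr and 82.0 and 30.96 FPKM in WT. Krt18, the type I partner of Krt8, had 25.1 and 97.3 FPKM in ++Oxtr and 79.2 and 45.9 FPKM in WT. Krt8, the type II partner, had 21.6 and 64.5 FPKM in ++Oxtr and 67.8 and 35.7 FPKM in WT. In each of the 3 genes ++Oxtr replicate 4 and WT replicate 5 were the high libraries, and the genotypes overlapped. In WT replicate 6 both Krt18 and Krt8 were above Krt19. Krt7, a type II keratin of ducts and mesothelium, had 4.86 and 11.2 FPKM in ++Oxtr against 6.38 and 6.78 FPKM in WT, on a deposited gene length of 7049 bases. For Krt7 the WT libraries were close to each other and lay between the ++Oxtr libraries.

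The proportion of Krt8 to Krt18, which pair in filaments, varied less between libraries than the level of either gene. Krt8 (ENSMUSG00000049382) lies on chromosome 15 from 101905133 to 101912917, minus strand, and Krt18 (ENSMUSG00000023043) from 101936615 to 101940462, plus strand, on the coordinates of the deposited table, which names no build. The genes are 23.7 kb apart, with no other gene row between them. The FPKM ratio of Krt8 to Krt18 was 0.862 and 0.663 in ++Oxtr and 0.856 and 0.777 in WT. Within ++Oxtr, replicate 4 exceeded replicate 3 by 4.02-fold for Krt18 (95% interval for counting error alone, 3.66 to 4.43) and by 3.09-fold for Krt8 (2.83 to 3.39). Within WT, replicate 5 exceeded replicate 6 by 1.68-fold for Krt18 and 1.85-fold for Krt8. Between genotypes the log2 difference was 6e-04 ± 0.71 (SE) for Krt18, with a 95% interval of -1.92 to 1.92, and -0.23 ± 0.62 for Krt8, with -1.92 to 1.45. Neither passed edgeR's quasi-likelihood test, where the adjusted p was 1 for both. The sign for Krt18 was negative in 7 of the 8 other settings of test, scaling and filter, so that it has no direction here.

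The remaining simple keratins followed different libraries. Krt23, a type I keratin of ductal epithelia, was at 0.453 and 3.67 CPM in ++Oxtr against 2.14 and 0.753 CPM in WT. Its high libraries were ++Oxtr replicate 4 and WT replicate 5, as for Krt8, Krt18 and Krt19. Krt20, a keratin of intestinal, urothelial and Merkel cells, was at 4.53 and 2.14 CPM in ++Oxtr against 5.23 and 2.51 CPM in WT. Here ++Oxtr replicate 3 and WT replicate 5 were the high libraries, with a 2.12-fold and a 2.09-fold gap within the genotypes.

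Keratins of stratified epithelium and hair were at low levels. Krt10, a keratin of the upper layers of epidermis, was the steadiest keratin, with 4.40 and 4.07 CPM in ++Oxtr and 3.98 and 3.76 CPM in WT. Its log2 difference was 0.13 ± 0.34 (SE), with a 95% interval of -0.77 to 1.03. Krt80, a type II keratin found in many epithelia, was at 2.72 and 12.1 CPM in ++Oxtr and 9.87 and 6.77 CPM in WT. Krt80 thus had its low value in ++Oxtr replicate 3 alone.

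Of the basal keratins, Krt5 had 2 counts in all and did not meet the count rule. Its usual partner Krt14 had 10 and 8 counts in the ++Oxtr libraries against 11 and 3 in the WT libraries, and Krt17 had 4 and 17 against 14 and 3. Krt15 was the highest basal keratin, with 0.259 and 2.27 CPM in ++Oxtr and 0.773 and 2.57 CPM in WT. Their high libraries differed, and none of the 3 separated the genotypes. Krt13, a keratin of mucosal epithelium, had 0 and 19 counts in ++Oxtr against 31 and 3 in WT. A count of 0 allows up to 3 counts, or 0.194 CPM in that library. The hair keratin Krt83 was at 1.42 and 3.74 CPM in ++Oxtr against 0.832 and 3.20 CPM in WT. Krt83 was thus high in ++Oxtr replicate 4 and WT replicate 6. Krt79 (5.83 and 2.87 CPM in ++Oxtr, 4.93 and 3.07 CPM in WT) and the hair keratin Krt84 (2.65 and 1.33 CPM in ++Oxtr, 2.08 and 2.13 CPM in WT) were highest in ++Oxtr replicate 3. Krt1, a partner of Krt10 in epidermis, had 10 and 10 counts in ++Oxtr and 30 and 12 in WT. The gap of Krt1 between the groups was 2 counts. Krt87 had 3 and 42 counts in ++Oxtr against 13 and 13 in WT, and Krt222 had 17 and 8 against 11 and 11. Krt12, Krt73, Krt75, Krt90 and Krt36 had sums of 10 to 30 counts and were removed by the filter, as was Cldn6.

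**Figure D2:**
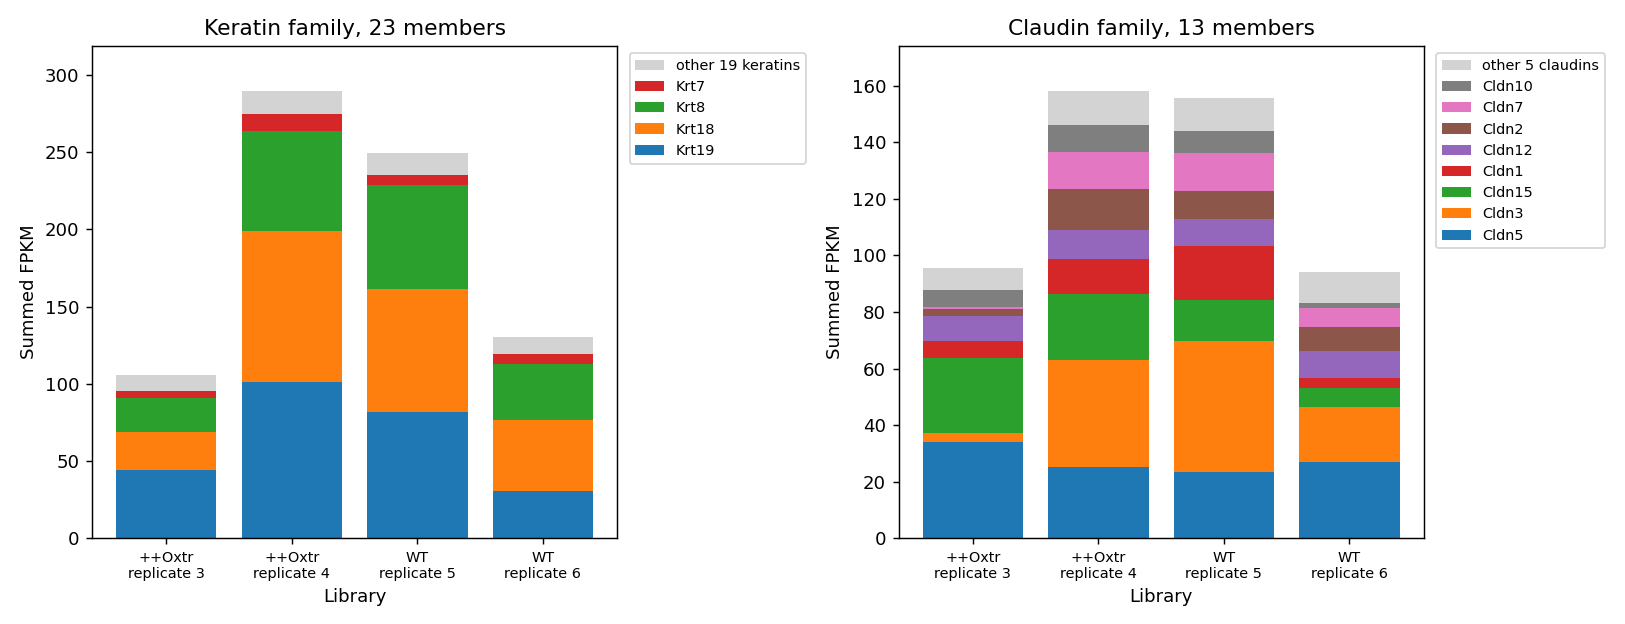
Summed FPKM of the 23 keratins and the 13 claudins in each library, with the most abundant members in colour and the rest in grey. Keratins summed to 106 FPKM in ++Oxtr replicate 3 and 290 FPKM in ++Oxtr replicate 4, against 250 and 130 FPKM in the WT libraries.

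As a family, keratins summed to 106 and 290 FPKM in ++Oxtr and to 250 and 130 FPKM in WT. Krt19, Krt18, Krt8 and Krt7 held 90.3% and 94.8% of that sum in ++Oxtr and 94.3% and 91.6% in WT. The total varied between libraries while these 4 genes kept at least 90.3% of it. Within the 4 genes the balance moved, as the FPKM ratio of Krt19 to Krt18 was 1.76 and 1.04 in ++Oxtr and 1.04 and 0.674 in WT. Type I chains exceeded type II chains 2.47- and 2.52-fold in ++Oxtr and 2.15- and 1.73-fold in WT, in summed FPKM. Both ++Oxtr libraries lay above both WT libraries in that ratio, as 14.5% of all genes tested did in their levels. No test was run on the ratio.

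Claudins summed to 95.7 and 158 FPKM in ++Oxtr and to 156 and 93.9 FPKM in WT. Cldn3 and Cldn7, barrier-forming claudins of simple epithelia, ranged widely between libraries. Cldn3 was at 3.95 and 48.9 CPM in ++Oxtr and 57.4 and 24.3 CPM in WT, from 61, 732, 965 and 388 counts. Cldn7 was at 1.75 and 25.8 CPM in ++Oxtr and 25.5 and 13.0 CPM in WT. Both were lowest in ++Oxtr replicate 3, and the genotypes overlapped. Within ++Oxtr, replicate 4 exceeded replicate 3 by 12.4-fold for Cldn3 (95% interval for counting error alone, 9.52 to 16.3) and 14.8-fold for Cldn7. The FPKM ratio of Cldn7 to Cldn3 stayed at 0.286 and 0.342 in ++Oxtr and 0.287 and 0.346 in WT. Cldn3 in ++Oxtr replicate 3 was low relative to Krt8 too, at 0.147 of its FPKM, against 0.588 in ++Oxtr replicate 4 and 0.684 and 0.536 in WT. The log2 difference between genotypes was -0.63 ± 1.18 (SE) for Cldn3 and -0.48 ± 1.22 for Cldn7 and neither passed edgeR's quasi-likelihood test (adjusted p = 1 for both). Without ++Oxtr replicate 3 both were positive, at 0.26 and 0.42.

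Cldn4 (ENSMUSG00000047501), another barrier claudin, lies on chromosome 5 from 134973973 to 134975788, 39.3 kb from Cldn3 (135015068 to 135016326) with no other gene row between them. It was at 3.69 and 4.34 CPM in ++Oxtr and 7.01 and 5.02 CPM in WT. Cldn4 and Cldn3 had the same lowest library, ++Oxtr replicate 3, and the same highest, WT replicate 5, but the ++Oxtr libraries differed by 1.18-fold for Cldn4 and by 12.4-fold for Cldn3. Both ++Oxtr libraries lay below both WT libraries. The log2 difference was -0.58 ± 0.36 (SE), from -0.80 to -0.33 with each library left out in turn. Its adjusted p by edgeR's quasi-likelihood test was 1. Cldn1, a claudin required for the skin barrier, was at 27.5 and 61.5 CPM in ++Oxtr and 90.5 and 18.4 CPM in WT. Its widest gap lay inside WT, where replicate 5 exceeded replicate 6 by 4.91-fold (4.33 to 5.58). Cldn8, a claudin of kidney and gut epithelia, was at 2.01 and 6.61 CPM in ++Oxtr against 6.54 and 3.83 CPM in WT. Cldn11, the claudin of myelin and of Sertoli cell junctions, was lowest in WT replicate 5, with 8.87 and 5.54 CPM in ++Oxtr and 3.03 and 6.59 CPM in WT. Cldn6, known from embryonic epithelium, had 3 and 2 counts in ++Oxtr and 7 and 0 in WT.

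Cldn5, the claudin of endothelial tight junctions, had the highest mean level per length of the claudins. It was at 47.6 and 36.4 CPM in ++Oxtr and 32.5 and 38.8 CPM in WT, so that the genotypes overlapped. The log2 difference was 0.23 ± 0.20 (SE), with a 95% interval of -0.30 to 0.77, and edgeR's quasi-likelihood test gave it an adjusted p of 1. All 8 endothelial markers were higher in both ++Oxtr libraries than in both WT libraries, where 14.5% of all genes tested were. Their summed level was 630 and 616 CPM in ++Oxtr and 466 and 477 CPM in WT. Whether endothelial content bears on Cldn5 was not tested, and in bulk tissue fewer cells of a type cannot be told apart from less RNA per cell. The FPKM ratio of Cldn5 to Pecam1, an endothelial adhesion molecule, was 1.37 and 1.15 in ++Oxtr and 1.30 and 1.82 in WT.

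Among the channel-forming claudins, Cldn15 was the member nearest to a genotype difference. Cldn15 (ENSMUSG00000001739), which forms cation pores in the intestine, lies on chromosome 5 from 136995470 to 137004712 in the deposited table. It was at 55.7 and 50.7 CPM in ++Oxtr and 30.2 and 14.5 CPM in WT, from 861, 760, 508 and 231 counts. The ++Oxtr libraries were close together, while the WT libraries differed 2.08-fold. The means were 53.2 ± 3.54 CPM in ++Oxtr and 22.3 ± 11.1 CPM in WT (SD, n = 2 each). The log2 difference was 1.25 ± 0.38 (SE), with a 95% interval of 0.22 to 2.29. Its p before adjustment was 0.0277. It did not pass over all genes, as the adjusted p was 1 by edgeR's quasi-likelihood test and 0.32 by DESeq2. Its sign was positive with each library left out, from 0.82 without WT replicate 6 to 1.87 without WT replicate 5.

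Most markers of the ovarian surface and mesothelium moved with Cldn15. Of 8 such markers, 6 were higher in both ++Oxtr libraries, against 14.5% of all genes, and the list summed to 740 and 641 CPM in ++Oxtr and 513 and 365 CPM in WT. Wt1, a transcription factor of mesothelium and granulosa cells, had the highest mean CPM of the 8. It overlapped between genotypes, at 185 and 181 CPM in ++Oxtr and 181 and 165 CPM in WT. Muc16 overlapped too. Upk3b, a uroplakin of mesothelium, was at 231 and 165 CPM in ++Oxtr and 114 and 63.0 CPM in WT. Gpm6a was at 76.6 and 68.6 CPM in ++Oxtr and 47.4 and 32.2 CPM in WT. The ratio of Cldn15 to Lrrn4, a mesothelial membrane protein picked here after its values were seen, was 1.13 and 1.003 in ++Oxtr and 1.04 and 0.943 in WT. The ratio to Upk3b was 0.241 and 0.308 in ++Oxtr and 0.264 and 0.230 in WT. These ratios varied less than Cldn15 itself. The ratio to Gpm6a had a wider range but also varied less than Cldn15. It was 0.727 and 0.740 in ++Oxtr and 0.637 and 0.450 in WT. Lrrn4, Upk3b and Gpm6a each lay higher in both ++Oxtr libraries, as Cldn15 did, so steadier ratios were built into that choice. No ratio to Wt1 or Muc16, which overlapped between genotypes, was computed. All 8 adipocyte markers were also higher in both ++Oxtr libraries. The part of mesothelial or fat cells in the Cldn15 values was not tested.

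The other channel claudins did not separate the genotypes. Cldn2, a pore for cations and water on chromosome X, was at 7.32 and 49.9 CPM in ++Oxtr and 32.0 and 28.04 CPM in WT. ++Oxtr replicate 4 exceeded replicate 3 by 6.83-fold (5.59 to 8.39), while the WT libraries differed by 1.14-fold. Cldn10, which forms ion pores in kidney and glands, was at 14.7 and 24.9 CPM in ++Oxtr and 20.3 and 4.89 CPM in WT. Its low library was WT replicate 6, 4.14-fold under WT replicate 5.

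Among members with a mean FPKM of at least 1, Cldn12 and Cldn23 had the narrowest and the widest range over the 4 libraries. Cldn12, a claudin found in many tissues, was at 37.7 and 43.3 CPM in ++Oxtr and 40.1 and 40.5 CPM in WT. The log2 difference of Cldn12 was 0.0083 ± 0.14 (SE), with a 95% interval of -0.36 to 0.37, and its sign turned in 6 of the 8 other settings of test, scaling and filter. Cldn23 was at 0.388 and 7.94 CPM in ++Oxtr and 5.17 and 5.58 CPM in WT. ++Oxtr replicate 4 exceeded replicate 3 by 20.4-fold for Cldn23, with 119 against 6 counts (9.12 to 56.8), while the WT libraries differed by 1.08-fold.

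**Figure D3:**
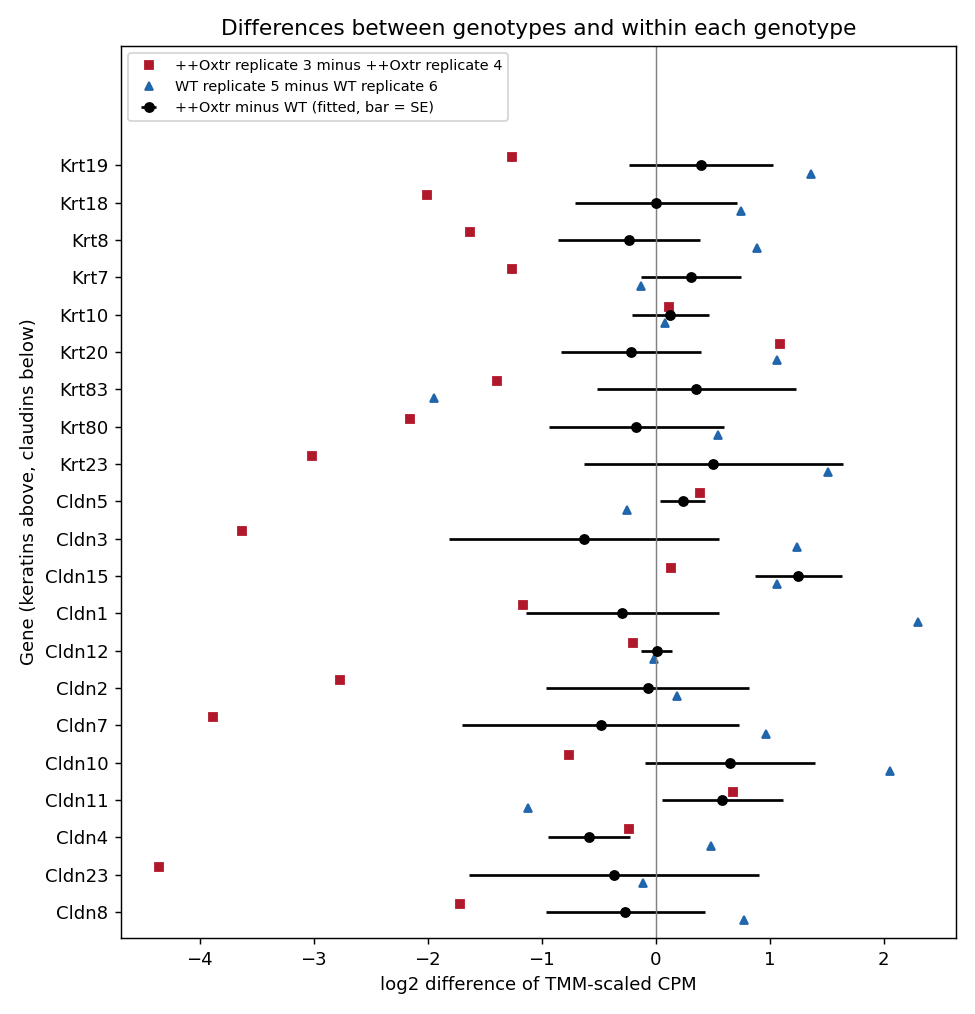
Log2 differences for the 21 members with a mean FPKM of at least 1, with black points for ++Oxtr minus WT (bar, SE of the fit), red squares for ++Oxtr replicate 3 minus replicate 4 and blue triangles for WT replicate 5 minus replicate 6. The red squares of Cldn23, Cldn7 and Cldn3 lie furthest from 0, and Cldn15 is the gene whose black point lies furthest to the right, at 1.25.

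More keratins and claudins were at least 2-fold apart inside a genotype than between genotypes, an order that all genes tested shared. A gap inside a genotype compares single libraries, while the difference between genotypes compares fitted group means, which vary less. Of the 30 members tested, 20 were at least 2-fold apart between the ++Oxtr libraries and 14 between the WT libraries, where 13% and 9.93% of all genes tested were. Only Cldn15 was at least 2-fold apart between the genotypes in the fit, where 4.42% of all genes were. The direction inside ++Oxtr was mostly the same, as replicate 3 was at least 2-fold under replicate 4 for 17 members, against 9.42% of all genes. Inside WT, replicate 6 was at least 2-fold under replicate 5 for 11 members, against 6.81% of all genes. The lowest library was ++Oxtr replicate 3 for 16 members, ++Oxtr replicate 4 for 4, WT replicate 5 for 3 and WT replicate 6 for 7, where the shares of all genes were 29.1%, 25.4%, 19.9% and 25.6%. The highest was ++Oxtr replicate 3 for 7, ++Oxtr replicate 4 for 14, WT replicate 5 for 8 and WT replicate 6 for 1, where the shares of all genes were 29%, 25.3%, 20.2% and 25.4%. Among the 21 members at or above 1 FPKM on average, 14 were at least 2-fold apart within ++Oxtr and 9 within WT. The median log2 difference between ++Oxtr replicates 3 and 4 was -1.33 for keratins and -0.96 for claudins, against 0.0030 for all genes tested.

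Most genes of simple epithelium shared the low library of many of these members, ++Oxtr replicate 3. Epcam, an epithelial adhesion molecule, was at 20.4 and 92.7 CPM in ++Oxtr and 81.1 and 61.0 CPM in WT. Cdh1, the adherens junction protein E-cadherin, was at 17.7 and 131 CPM in ++Oxtr and 120 and 92.5 CPM in WT. Ovgp1, the oviduct glycoprotein, was at 15.9 and 2574 CPM in ++Oxtr and 1973 and 582 CPM in WT, and Dnah5, a motor protein of cilia, at 0.777 and 163 CPM against 148 and 141 CPM. Each of these 4 genes was lowest in ++Oxtr replicate 3. Of 13 simple epithelium genes, 10 were lowest in that library, and the list summed to 192 and 768 CPM in ++Oxtr and 710 and 443 CPM in WT. Ovol1 and Esrp1 were lowest in WT replicate 6, and Grhl1 in WT replicate 5. Grhl1 was at 7.12 and 5.07 CPM in ++Oxtr and 2.85 and 3.45 CPM in WT. Within ++Oxtr, replicate 4 exceeded replicate 3 by 4.55-fold for Epcam, by 7.43-fold for Cdh1 and by 24.5-fold for Grhl2, a transcription factor of epithelial junction genes. The gap for Krt8 and Krt18 was smaller than for Epcam, and that for Cldn3 and Cldn7 larger. The part of oviduct tissue in the keratin and claudin values was not tested.

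**Figure D4:**
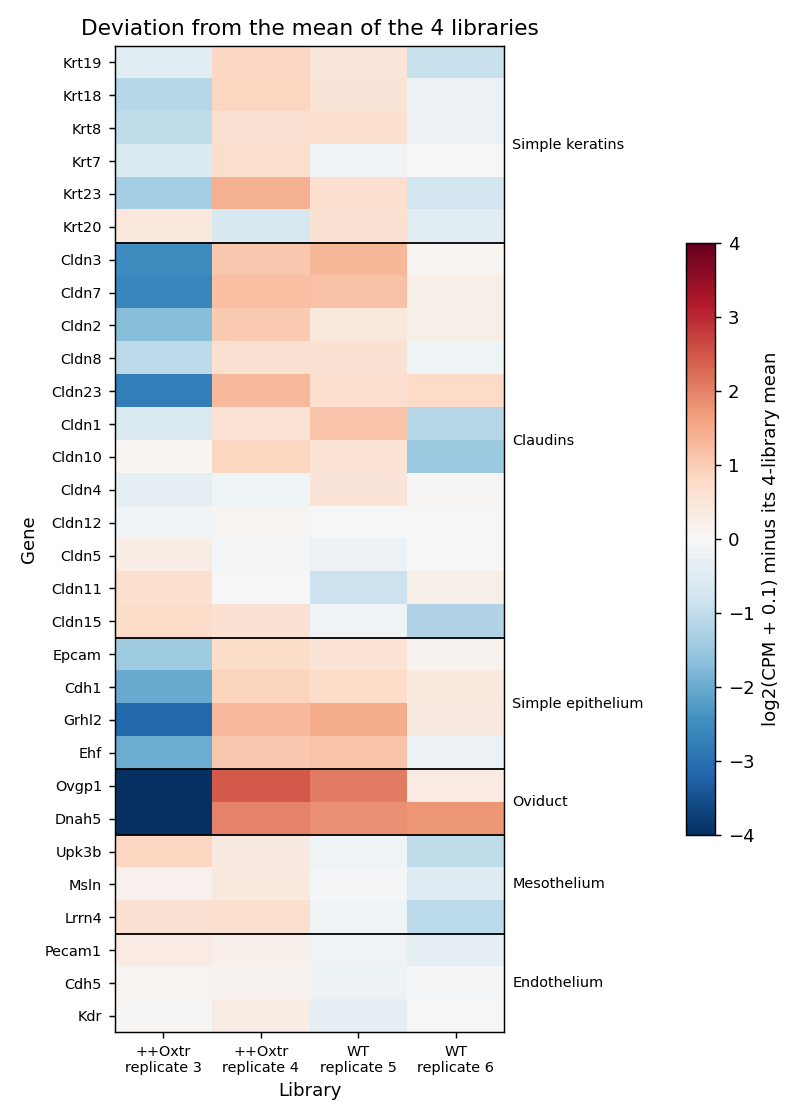
Deviation of each gene's log2(CPM + 0.1) from its mean over the 4 libraries, in columns of libraries, for the simple keratins, the claudins and marker genes of simple epithelium, oviduct, mesothelium and endothelium. Cldn3, Cldn7 and Cldn23 share the low values of Epcam, Cdh1, Ovgp1 and Dnah5 in ++Oxtr replicate 3, while Cldn15 is high in both ++Oxtr libraries with Upk3b and Lrrn4.

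Transcripts of proteins that bind claudins and keratins were set beside the members. Of 19 tight junction partners, 0 passed edgeR over all genes, 2 were at least 2-fold apart between the ++Oxtr libraries and 1 between the WT libraries. The lowest library was ++Oxtr replicate 3 for 11 of the 19, against 29.1% of all genes tested. Tjp1, the scaffold ZO-1 that binds claudin tails, was at 232 and 226 CPM in ++Oxtr and 238 and 237 CPM in WT. Jam2, a junctional adhesion molecule, was at 206 and 232 CPM in ++Oxtr and 246 and 150 CPM in WT. Tjp3, the scaffold ZO-3, ranged more widely, with 2.65 and 17.3 CPM in ++Oxtr and 19.6 and 5.58 CPM in WT. Occludin, from Ocln, was at 6.73 and 12.6 CPM in ++Oxtr and 14.6 and 15.99 CPM in WT, and was lower in both ++Oxtr libraries. So were 3 of the 19 partners in all, while 2 were higher in both, where 11.7% and 14.5% of all genes were. The list had a median log2 difference between genotypes of -0.034.

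Of 16 desmosome and keratin linker genes, 15 were tested, 0 passed, and 10 were lowest in ++Oxtr replicate 3. Dst, which links filaments to hemidesmosomes and microtubules, was at 355 and 622 CPM in ++Oxtr and 486 and 366 CPM in WT. Plec, which encodes the linker plectin, was at 246 and 322 CPM in ++Oxtr and 347 and 291 CPM in WT. Eppk1, a keratin-binding plakin, had a wider range, with 1.17 and 13.5 CPM in ++Oxtr and 11.9 and 9.60 CPM in WT. Pkp1, which encodes a desmosomal plakophilin, had the widest range of the list, with 0.0647 and 6.21 CPM in ++Oxtr and 2.97 and 4.45 CPM in WT. Its value in ++Oxtr replicate 3 lay under the floor of 0.194 CPM for that library, so the extent of that range is uncertain. Vim, the filament protein of stromal and endothelial cells, was at 617 and 642 CPM in ++Oxtr and 596 and 539 CPM in WT, so it lacked the range of Krt8. The 14 other intermediate filament genes summed to 1165 and 1431 CPM in ++Oxtr and 1277 and 1142 CPM in WT. Markers of stratified epithelium were low throughout, at 18.6 to 22.4 CPM over 8 genes, with Sprr1b at 0 and Ivl at 1 count.

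Upstream sequences are shown for both neighbouring pairs, Krt8 with Krt18 and Cldn3 with Cldn4, and for the endothelial Cldn5. They are the 250 bases before the transcription start in RefSeq on GRCm38.p6, 5′ to 3′ on the gene's strand, matched to members by symbol. The coordinates of the deposited table given above are not on that build. Capitals mark CACCTG, an E-box that the repressors Snail and Zeb are known to bind, and GGGCGG, the GC box bound by Sp1, each on either strand.
Krt8 (chr15:102004343-102004592, minus strand): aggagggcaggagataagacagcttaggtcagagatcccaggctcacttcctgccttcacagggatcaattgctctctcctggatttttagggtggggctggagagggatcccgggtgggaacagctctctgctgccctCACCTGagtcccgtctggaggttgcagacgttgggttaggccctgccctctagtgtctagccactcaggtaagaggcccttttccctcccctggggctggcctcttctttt
Krt18 (chr15:102027966-102028215, plus strand): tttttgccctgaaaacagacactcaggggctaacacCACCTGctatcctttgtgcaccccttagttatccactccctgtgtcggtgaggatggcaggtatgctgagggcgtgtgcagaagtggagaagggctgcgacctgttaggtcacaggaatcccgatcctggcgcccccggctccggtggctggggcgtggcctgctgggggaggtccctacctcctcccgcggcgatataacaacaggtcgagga
Cldn3 (chr5:134985964-134986213, plus strand): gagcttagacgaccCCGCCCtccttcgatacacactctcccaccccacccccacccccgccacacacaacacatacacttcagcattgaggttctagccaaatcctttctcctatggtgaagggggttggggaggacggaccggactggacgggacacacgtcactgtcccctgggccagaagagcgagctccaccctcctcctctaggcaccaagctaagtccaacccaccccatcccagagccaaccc
Cldn4 (chr5:134946935-134947184, minus strand): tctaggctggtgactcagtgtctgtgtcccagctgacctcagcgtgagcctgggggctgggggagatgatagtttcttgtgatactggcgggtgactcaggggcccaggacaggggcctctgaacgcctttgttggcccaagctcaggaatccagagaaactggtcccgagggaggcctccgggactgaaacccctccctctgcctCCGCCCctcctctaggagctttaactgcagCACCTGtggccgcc
Cldn5 (chr16:18776597-18776846, plus strand): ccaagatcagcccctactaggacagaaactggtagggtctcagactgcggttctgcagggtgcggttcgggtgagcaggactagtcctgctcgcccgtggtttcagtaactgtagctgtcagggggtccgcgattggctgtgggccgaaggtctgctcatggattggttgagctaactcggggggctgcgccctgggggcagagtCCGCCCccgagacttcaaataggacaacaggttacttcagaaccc
Krt8 and Krt18 each held 1 CACCTG and no GGGCGG, Cldn3 and Cldn5 held 1 GGGCGG and no CACCTG, and Cldn4 held 1 of each. Of 36 members, 26 had an entry, with 31 start sites. CACCTG stood before 10 of these 31 starts, or 32.3%, against 17.2% of all 32851 starts in the table. GGGCGG stood before 12, or 38.7%, against 32.7% of all starts. TATAAA, the string of a TATA box, was counted on either strand and at any position in the 250 bases. It stood before 6, or 19.4%, against 12.4% of all starts. The motifs do not overlap each other in the sequences shown, and a match is a string of letters and not a measured site.

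Sequence shared with relatives limits a few of the counts. In GENCODE M21 transcripts, 10 of 36 members shared 50-base stretches with a transcript of another gene. For Krt8 it was 26.9% of stretches, with the pseudogene Krt8-ps. For Krt87 it was 36.9% and for Krt83 23.2%, with hair keratins such as Krt81, and for Krt14 14.4%, with Krt16 and Krt17. The counts of these 4 genes are uncertain where reads were assigned to either copy. No claudin shared such a stretch, and no other row of the deposited table overlapped a member.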

How the data were processed

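The 4 mouse ovary libraries were built with NEBNext Ultra II reagents and sequenced, per the labels' protocols. Per the file headers, the deposited table holds a read count and an FPKM value per gene and library. The counts are whole numbers, not normalised. The FPKM values deposited by the authors equal the count divided by the table's gene length and the library's total count, to within a relative difference of 3.6e-05. The submitters' processing notes name mm10, while the gene coordinates of the deposited table are not those of GRCm38.p6. Aligner, counter and strand setting: not given in the sources used here.

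Counts of all genes were scaled by TMM, filtered with filterByExpr (minimum count 10, 15311 genes kept) and compared by edgeR's quasi-likelihood test, version 4.0.16, in R 4.3.3. Benjamini-Hochberg adjustment covered all 15311, with a threshold of 0.05. The fit had 2 residual degrees of freedom and a common dispersion of 0.104. SE and 95% intervals come from its quasi-F statistic. Alternatives were DESeq2 1.42.0 (18310 genes with an adjusted p), limma-voom and limma with trend on FPKM (limma 3.58.1), other scalings and filters, and each library left out. The tests were checked on counts simulated with a lower dispersion than that fitted here. That check does not show how they perform at the spread of these data. The ++Oxtr libraries held 15229810 and 15319853 counts, the WT libraries 16517764 and 16105024. Intervals of a ratio between libraries are exact conditional binomial and, like the floor of 3 counts (0.178 to 0.200 CPM), cover counting error only.

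Members and the 13 marker and partner lists were chosen with earlier results of these data known. Genes named are Oxtr, every member averaging 1 FPKM or more, the highest member of each role group below that, any member past the threshold, and from each list up to 3 genes of highest mean CPM plus Ovgp1, Dnah5, Epcam and Cdh1. The other genes named were chosen after their values were seen. Replicate numbers are those of the titles. The labels do not say that replicates came from separate animals, so p-values measure only a spread among libraries that may be technical. Only transcripts in the deposited table were used, and 51 rows without a symbol stayed in the tests.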

Additional observations from a re-analysis of the deposited data

How the results depend on the processing

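No paired analysis was possible because the replicate numbers of the titles, 3 and 4 for ++Oxtr and 5 and 6 for WT, are not shared between groups. Members called stayed at 0 in each direction under every test, scaling and filter and with each library left out. Over all genes, edgeR called 0 in each direction and DESeq2 called 67 higher and 3 lower. Leaving out each library in turn gave 0 to 7 higher and 0 to 58 lower, the highest of both without ++Oxtr replicate 4. On deposited FPKM, 1 member in place of 2 was higher in both ++Oxtr libraries. With 3 libraries, which separate more easily by construction, 5 to 16 members were higher and 3 to 16 lower without overlap. The median log2 difference ran from -0.73 to 0.36 for keratins and from -0.85 to 0.31 for claudins over these fits. The sign of the log2 difference turned in at least 1 of them for Cldn1 (-1.03 to 1.26), Cldn10 (-0.035 to 2.01), Cldn12 (-0.10 to 0.10), Cldn2 (-2.04 to 0.73), Cldn23 (-3.77 to 0.56), Cldn3 (-3.37 to 0.26), Cldn7 (-3.46 to 0.42), Cldn8 (-1.37 to 0.35), Krt18 (-1.33 to 0.68), Krt19 (-0.36 to 1.23), Krt20 (-0.85 to 0.41), Krt23 (-1.66 to 1.43), Krt7 (-0.45 to 0.81), Krt8 (-1.27 to 0.36), Krt80 (-1.61 to 0.54) and Krt83 (-0.50 to 1.62). Cldn15, Cldn4, Cldn5, Cldn11 and Krt10 kept their sign in each of these 4 fits. For Krt18, the log2 difference was -0.0067 in DESeq2, -0.28 in limma-voom, -0.0071 with DESeq2 size factors, -0.032 with total counts alone, -0.012 without a filter, and -0.28 and -0.29 on log2(FPKM + 1) and log2(FPKM + 0.1). For Cldn12 it was -3e-04 in DESeq2, -2e-04 with DESeq2 size factors, -0.0051 with total counts alone, -0.0041 without a filter, and -0.0059 and -0.0066 on the same FPKM scales. The cause was not tested. At these depths, members under about 1 CPM rest on few counts, and with 2 libraries a group only differences well beyond the spread within a genotype can be detected.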

Other observations

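Krt83 (1.42 and 3.74 CPM in ++Oxtr, 0.832 and 3.20 CPM in WT) and Krt15 (0.259 and 2.27 CPM in ++Oxtr, 0.773 and 2.57 CPM in WT) were high in ++Oxtr replicate 4 and WT replicate 6. Inhba, which encodes a subunit of activin and inhibin, was at 348 and 1368 CPM in ++Oxtr and 509 and 1341 CPM in WT. Cyp19a1, the aromatase gene of granulosa cells, was at 23.8 and 73.2 CPM in ++Oxtr and 8.56 and 63.1 CPM in WT. These genes share their 2 high libraries, and 4 libraries cannot show a relation. They were picked after their values were seen. Not all granulosa cell markers shared these libraries, as Amh and Amhr2 were lowest in ++Oxtr replicate 4.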
